A study of Rattus norvegicus with 6 samples.

Results

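Load on the rat knee was followed here through 10 genes of the hypertrophic chondrocyte and of hedgehog signalling. They are the ligand gene Ihh, its receptor gene Ptch1, the effector gene Gli1, the parathyroid hormone receptor gene Pth1r, type X collagen (Col10a1), the channel gene Panx3, alkaline phosphatase (Alpl) and the transcription factor genes Runx2, Runx3 and Mef2c. The genes were taken by symbol from the deposited count table, in which each matched 1 row of 26981, and all 10 were among the 16447 genes with enough counts to be tested. The control group was 3 libraries from wild-type male Sprague-Dawley rats without loading. The loaded group was 3 libraries from wild-type rats of the same strain and sex, labelled as under excessive mechanical load. Per the study design the rats were 6 weeks old at the start, and loading compressed the right knee and ankle axially under anaesthesia every 2 days for 4 weeks, with 40 cycles a session. In each 10 s cycle the load peaked at 20 N for 0.5 s, with 9 s at a base of 5 N. Whether control rats were anaesthetised or handled in the same way is not given in the sources used here. The labels do not tie each library to its own animal. The p-values therefore rest on the spread among 3 libraries a group, and that spread may be technical.

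In growing cartilage, chondrocytes that stop dividing enlarge, become hypertrophic and make type X collagen before the matrix mineralises. Cells entering hypertrophy secrete Indian hedgehog, which binds the receptor Patched 1 and so releases Smoothened, and Gli transcription factors then act on target genes that include Ptch1 and Gli1 themselves. In mouse growth plates Indian hedgehog also raises parathyroid hormone related peptide, which acts through the receptor encoded by Pth1r to hold chondrocytes back from hypertrophy. Features of this programme are also described in osteoarthritic cartilage.

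Libraries held 28435307 to 40332904 counts, and levels are given as CPM, the counts of a gene relative to the scaled total of its library. All 12 markers of chondrocytes that are not hypertrophic were detected, which at this depth does not verify the labelled tissue, knee cartilage. Their summed level was 1718 to 1787 CPM in control and 2450 to 2561 CPM in loaded libraries. Without type II collagen (Col2a1), the most abundant, it was 735 to 745 and 975 to 996 CPM. Markers of skeletal muscle summed to 7318 to 7450 CPM in control and 17149 to 17918 CPM in loaded libraries. Markers of neutrophils summed to 45561 to 50151 CPM in control and 31523 to 38122 CPM in loaded libraries. The muscle and neutrophil sums were larger than that of the chondrocyte markers in every library, though such sums do not measure shares of cells. In such bulk RNA, fewer cells of a type and less RNA per cell cannot be told apart.

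Loaded knees had more transcripts of Col10a1, Ihh, Panx3, Pth1r and Mef2c and fewer of Alpl and Runx3, while Ptch1, Gli1 and Runx2 did not pass the test. At an adjusted p under 0.05 (edgeR quasi-likelihood F test, Benjamini-Hochberg over all tested genes) 7 of the 10 genes changed, as did 35.8% of all tested genes. Of these, 5 rose against a background of 17.9%, and 2 fell against 18.0%. The log2 fold changes had a median of 0.73 among the 10 genes and of 0.0039 among all tested genes. The 3 loaded libraries lay entirely above the 3 control libraries for 6 genes, against 23.9% of all tested genes, and entirely below for 2, against 23.9%; in either direction the share of all tested genes was 47.9%. With 3 libraries against 3, the smallest p of an exact permutation test is 0.1, so none is given for single genes. The plot of levels by library shows the spread behind each change.

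**Figure D1:**
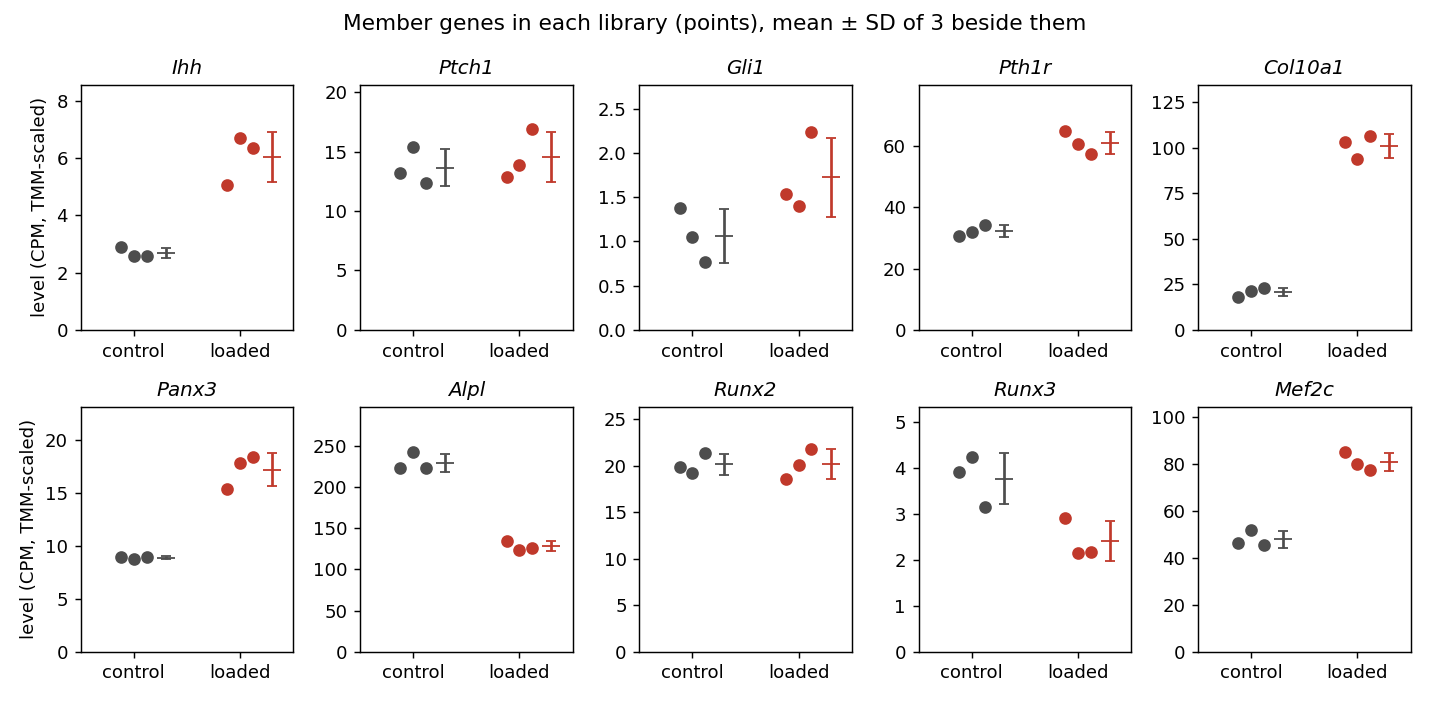
Level of each of the 10 genes in every library, in CPM on TMM-scaled library sizes, with control in grey and loaded in red; bars beside the points are mean ± SD of 3 libraries. Col10a1 lies between 93.6 and 106 CPM in loaded libraries and at most at 22.9 CPM in controls, while the groups of Ptch1 and Runx2 overlap.

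The order of the genes by level differed between the groups. On the authors' FPKM scale, Alpl was the most abundant of the 10 in control libraries at 89.0 ± 6.47 FPKM (SD, n = 3), followed by Pth1r at 13.4 ± 0.763, with Col10a1 at 9.30 ± 1.08 and Mef2c at 8.38 ± 0.903 FPKM overlapping each other. Panx3, Runx2 and Runx3 came next at 3.34, 3.26 and 2.78 FPKM, each overlapping the gene below it down to Runx3. Ptch1 stood at 1.71, Ihh at 1.07 and Gli1 at 0.246 FPKM, without overlap. In loaded libraries Alpl at 53.2 ± 3.07 and Col10a1 at 48.2 ± 4.31 FPKM overlapped. Pth1r followed at 26.9, Mef2c at 14.1 and Panx3 at 6.89 FPKM, and Runx2 stood at 3.48 FPKM. Ihh came next at 2.57 FPKM, where in controls it had been below Ptch1 and Runx3, though it overlapped Ptch1 at 1.94 FPKM, which overlapped Runx3 at 1.88 FPKM. Gli1 remained the lowest at 0.425 FPKM.

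The ligand of the pathway rose. Ihh (ENSRNOG00000018059) stood at 2.89, 2.57 and 2.58 CPM in control 1 to 3 and at 5.05, 6.70 and 6.35 CPM in loaded 1 to 3. All 3 loaded values lay above the 3 control values, with loaded 1 the lowest of its group. The rise was 2.25-fold, a log2 fold change of 1.17 with a 95% confidence interval of 0.78 to 1.55 (adjusted p = 0.000133, edgeR). Ihh was a gene of low abundance, with 88 to 101 counts per control library and 158 to 219 counts per loaded library.

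The receptor and the effector, which are the usual readouts of the pathway, did not pass. Ptch1 (ENSRNOG00000019354) stood at 13.2, 15.4 and 12.3 CPM in controls and at 12.8, 13.9 and 16.9 CPM in loaded libraries. The groups overlapped, and the log2 fold change of 0.10 had an interval of -0.17 to 0.36 (adjusted p = 0.597, edgeR). Gli1 (ENSRNOG00000025120), which hedgehog signalling induces, had 48, 36 and 30 counts in controls and 48, 40 and 77 counts in loaded libraries. On the CPM scale its loaded values of 1.53, 1.40 and 2.23 lay just above the control values of 1.37, 1.05 and 0.767. Its log2 fold change of 0.70 had an interval of -0.02 to 1.42 (adjusted p = 0.124, edgeR), which spans no change and also a rise larger than that of Ihh. A miss of the threshold at these counts does not show that Gli1 was unaltered.

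Because a ratio of counts within a library does not depend on library scaling, ligand and receptor were also set against each other. Per 100 Ptch1 counts there were 21.9, 16.7 and 20.9 Ihh counts in controls and 39.3, 48.2 and 37.5 in loaded libraries. The groups did not overlap, and the mean ratio was 2.10-fold higher under load. Per 100 Ihh counts, Gli1 had 29.7 to 47.5 counts in controls and 20.9 to 35.2 in loaded libraries, which overlapped.

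The promoter of Ptch1 is shown because Ptch1 is a direct hedgehog target and a letter match to the GLI consensus lies in it. The RefSeq window on build GRCr8 runs from 250 bases before to 50 bases after the annotated start, at chr17:1555321-1555620 on the plus strand. Capitals mark the GLI consensus TGGGTGGTC, searched on both strands, whose match begins 172 bases before the start.
Ptch1: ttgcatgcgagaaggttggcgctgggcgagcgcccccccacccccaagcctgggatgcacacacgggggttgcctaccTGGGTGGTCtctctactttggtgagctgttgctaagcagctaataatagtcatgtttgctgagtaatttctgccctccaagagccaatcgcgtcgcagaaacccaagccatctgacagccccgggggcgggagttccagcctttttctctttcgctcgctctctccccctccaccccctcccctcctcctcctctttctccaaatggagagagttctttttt
Among 33469 promoter windows of the same length, 129 (0.385%) held these letters. Of the 10 genes, 6 had windows in the RefSeq table, namely Col10a1, Ptch1, Pth1r, Alpl, Runx2 and Runx3, and the GLI letters were found in that of Ptch1 alone. A match to the MEF2 consensus begins 133 bases before the same start. The match is a description of the sequence, and whether a factor bound there was not measured.

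Of 22 other listed hedgehog genes, 17 had enough counts to be tested. Of these 2 rose and 1 fell, against 17.9% and 18.0% of all tested genes, and the median log2 fold change was 0.07. Desert hedgehog (Dhh), a second ligand of the family, had 20, 11 and 15 counts in controls and 50, 35 and 37 in loaded libraries and rose by 1.60 ± 0.423 (log2 ± SE; adjusted p = 0.00809, edgeR). Sonic hedgehog (Shh) had 0 counts in every library, which at 3 counts a library allows up to 0.0767 to 0.105 CPM, a limit for counting error only. Spop, an adaptor of a ubiquitin ligase that acts on Gli proteins, rose from 94.5 ± 2.40 to 114 ± 7.81 CPM (SD, n = 3). Evc2, a protein of the primary cilium base needed for the response to hedgehog, fell from 3.47 ± 0.412 to 1.47 ± 0.443 CPM, with groups that did not overlap (adjusted p = 0.00149, edgeR).

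Other regulators and effectors of the pathway were low and variable. Hhip, a decoy that binds hedgehog ligands and is itself a target, had 28, 26 and 16 counts in controls and 10, 0 and 7 counts in loaded libraries (adjusted p = 0.0698, edgeR), and it passed when loaded 1 was left out (adjusted p = 0.0474). Smo, the signal transducer that Patched restrains, had 101, 48 and 47 counts in controls and 42, 137 and 159 in loaded libraries, so that control 1 and loaded 1 ran against their groups. Its log2 fold change of 0.97 did not pass (adjusted p = 0.257, edgeR) and became 1.36 without loaded 1 (adjusted p = 0.0112). The inhibitor Sufu and the Gli family member Gli2 had log2 fold changes of -0.05 and 0.33 and did not pass, and both signs flipped when single libraries were left out; that of Sufu also flipped with library totals as the scaling. Gli3 was below the count filter, with 33 counts in loaded 1 and 2 and 0 counts in the other loaded libraries.

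The receptor for parathyroid hormone and its related peptide rose. Pth1r (ENSRNOG00000020948) stood at 30.6, 32.1 and 34.2 CPM in controls and at 64.9, 60.7 and 57.6 CPM in loaded libraries. Every loaded value was at least 57.6 CPM while no control exceeded 34.2 CPM. The rise was 1.89-fold, a log2 fold change of 0.92 with an interval of 0.78 to 1.06 (adjusted p = 4.26e-08, edgeR). The receptor is also present on osteoblasts. Markers of osteoblasts and osteocytes summed to 2214 to 2280 CPM in controls and 4979 to 5217 CPM under load. Without Col1a1, the most abundant, the sums were 688 to 743 and 1187 to 1284 CPM. Of these 10 markers 8 rose and 0 fell, against 17.9% and 18.0% of all tested genes. For 2 of them the loaded libraries lay entirely below the controls, as for 23.9% of all tested genes. The part of these cells in the rise of Pth1r was not tested.

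Of the genes that work with this receptor, 9 symbols were listed and 8 features were tested. Of these 0 rose and 2 fell, against 17.9% and 18.0% of all tested genes, so the counts do not set the axis apart, and the median log2 fold change was -0.08. Sik3, a kinase that this receptor's signalling inhibits in mouse chondrocytes, fell by 0.29 ± 0.0823 on the log2 scale (adjusted p = 0.0138, edgeR). It missed the threshold with library totals (adjusted p = 0.0853) and without control 3 (adjusted p = 0.0645). Nkx3-2, a repressor of hypertrophy, had 18, 14 and 28 counts in controls and 6, 2 and 5 in loaded libraries (adjusted p = 0.0291, edgeR), and this call was lost in 7 of 13 alternatives, including without any 1 of control 1, control 2, control 3, loaded 2 and loaded 3 (adjusted p = 0.0550 to 0.179). The ligand gene of the axis matched no row by symbol and was not analysed here.

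Type X collagen showed the largest change of the 10 genes. Col10a1 (ENSRNOG00000051399) had 639, 727 and 896 counts in controls and 3230, 2669 and 3661 counts in loaded libraries, or 18.3, 21.2 and 22.9 CPM against 103, 93.6 and 106 CPM. Every loaded library lay far above the highest control. The rise was 4.85-fold, a log2 fold change of 2.28 with an interval of 2.10 to 2.45 (adjusted p = 2.22e-10, edgeR), and 99.2% of tested genes had a smaller log2 fold change. Col10a1 and Ihh were the 2 of the 10 that rose at least 2-fold, which 4.99% of tested genes did.

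Relative to the counts of Col2a1, Mmp13, Ibsp and Ihh in the same library, those of Col10a1 were higher under load. This follows from its larger log2 fold change. Per 1000 counts of type II collagen (Col2a1) there were 20.7 ± 2.23 Col10a1 counts in controls and 66.5 ± 3.28 in loaded libraries (SD, n = 3), a 3.21-fold difference of the means. Per 100 counts of the collagenase Mmp13, another gene of hypertrophic chondrocytes, there were 2.20 to 2.74 Col10a1 counts in controls and 11.1 to 12.4 under load. Per 100 counts of bone sialoprotein (Ibsp) there were 10.9 to 13.3 and 18.5 to 22.2. Per Ihh count there were 6.33 to 8.87 and 14.0 to 20.4. None of these ratios overlapped between the groups.

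The promoter of Col10a1 is shown because it belongs to the gene with the largest change of the set. The GRCr8 window lies at chr20:39737286-39737585 on the plus strand, and capitals mark the TATA letters TATAAA, searched on both strands, that begin 31 bases before the annotated start.
Col10a1: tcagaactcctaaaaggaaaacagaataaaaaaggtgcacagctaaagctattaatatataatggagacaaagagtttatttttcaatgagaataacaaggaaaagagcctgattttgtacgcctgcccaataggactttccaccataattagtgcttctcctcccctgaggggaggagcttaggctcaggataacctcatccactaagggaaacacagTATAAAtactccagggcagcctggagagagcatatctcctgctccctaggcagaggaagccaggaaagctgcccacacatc
TATAAA was found in 14.2% of all windows. No match to the RUNX core TGTGGT, found in 17.3% of windows, to the MEF2 consensus, found in 3.29%, or to the GLI letters lay in the Col10a1 window, which says only that these letters are not in these 300 bases. G and C made up 44.0% of its bases, against 78.7% in the window of Pth1r and 76.3% in that of Alpl.

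Panx3, a pannexin channel that hypertrophic chondrocytes and osteoblasts carry, rose as well. It (ENSRNOG00000031675) stood at 8.96, 8.70 and 8.97 CPM in controls and at 15.4, 17.8 and 18.3 CPM in loaded libraries. The controls lay within a narrow range and loaded 1 was the lowest of its group, as for Ihh. The rise was 1.94-fold, a log2 fold change of 0.95 with an interval of 0.72 to 1.18 (adjusted p = 6.27e-06, edgeR). Of 10 osteoblast and osteocyte markers 8 rose, against 17.9% of all tested genes, with a median log2 fold change of 1.05. The part of osteoblasts in the rise of Panx3 was not tested. The related channel gene Panx1 stood at 9.95 ± 1.36 and 8.93 ± 1.62 CPM and did not pass (adjusted p = 0.454, edgeR).

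Alkaline phosphatase went the other way. Alpl (ENSRNOG00000013954), the enzyme that removes pyrophosphate, an inhibitor of mineral, stood at 223, 242 and 223 CPM in controls and at 135, 123 and 126 CPM in loaded libraries. The groups were far apart. The level was 1.79-fold lower, a log2 fold change of -0.84 with an interval of -0.95 to -0.73 (adjusted p = 6.98e-09, edgeR), and Alpl fell in all 14 alternatives of test, scaling, filter and left-out library.

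None of the other tested mineralisation genes passed as lower. Of 14 tested genes of that list 10 rose and 0 fell, against 17.9% and 18.0% of all tested genes, and the median log2 fold change was 0.46. The loaded libraries lay entirely above the controls for 11 and entirely below for 2, against 23.9% of all tested genes each way. The matrix protein gene Ibsp rose from 173 ± 5.41 to 500 ± 19.2 CPM and Dmp1, a matrix protein of osteocytes, from 59.2 ± 0.726 to 96.6 ± 7.08 CPM. Phospho1, the phosphatase that makes phosphate inside matrix vesicles, rose from 70.7 ± 1.18 to 103 ± 3.95 CPM, and the collagen-binding protein Sparc rose by 1.09 ± 0.0304 on the log2 scale. Osteopontin (Spp1) rose by 0.17 ± 0.0341. Enpp1, the enzyme that makes pyrophosphate, had a log2 fold change of 0.18 ± 0.093 and did not pass (adjusted p = 0.153, edgeR).

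Ratios within a library, which do not depend on library scaling, express the same changes in another form. Per Ibsp count there were 1.32, 1.35 and 1.29 Alpl counts in controls and 0.261, 0.244 and 0.263 in loaded libraries, a 5.17-fold lower ratio. Per Phospho1 count there were 3.10 to 3.48 and 1.18 to 1.36. In humans, alkaline phosphatase of this type is also carried by neutrophils. Of 10 tested neutrophil markers 7 fell and 1 rose, against 18.0% and 17.9% of all tested genes, with a median log2 fold change of -0.47. The most abundant of them, S100a9, fell by 0.48 ± 0.0938, a call lost without control 1 and without loaded 1 (adjusted p = 0.0630 and 0.0544). Set against each of the 10 tested neutrophil markers, the Alpl count was lower under load without overlap for 8 and overlapped for 2, the protease gene Prtn3 and the calprotectin gene S100a8. The ratio of the means was 1.10-fold lower against Prtn3 and 2.18-fold lower against the collagenase gene Mmp8, the marker that rose, so its size depended on the marker. The part of neutrophil RNA in the fall of Alpl was not tested.

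**Figure D2:**
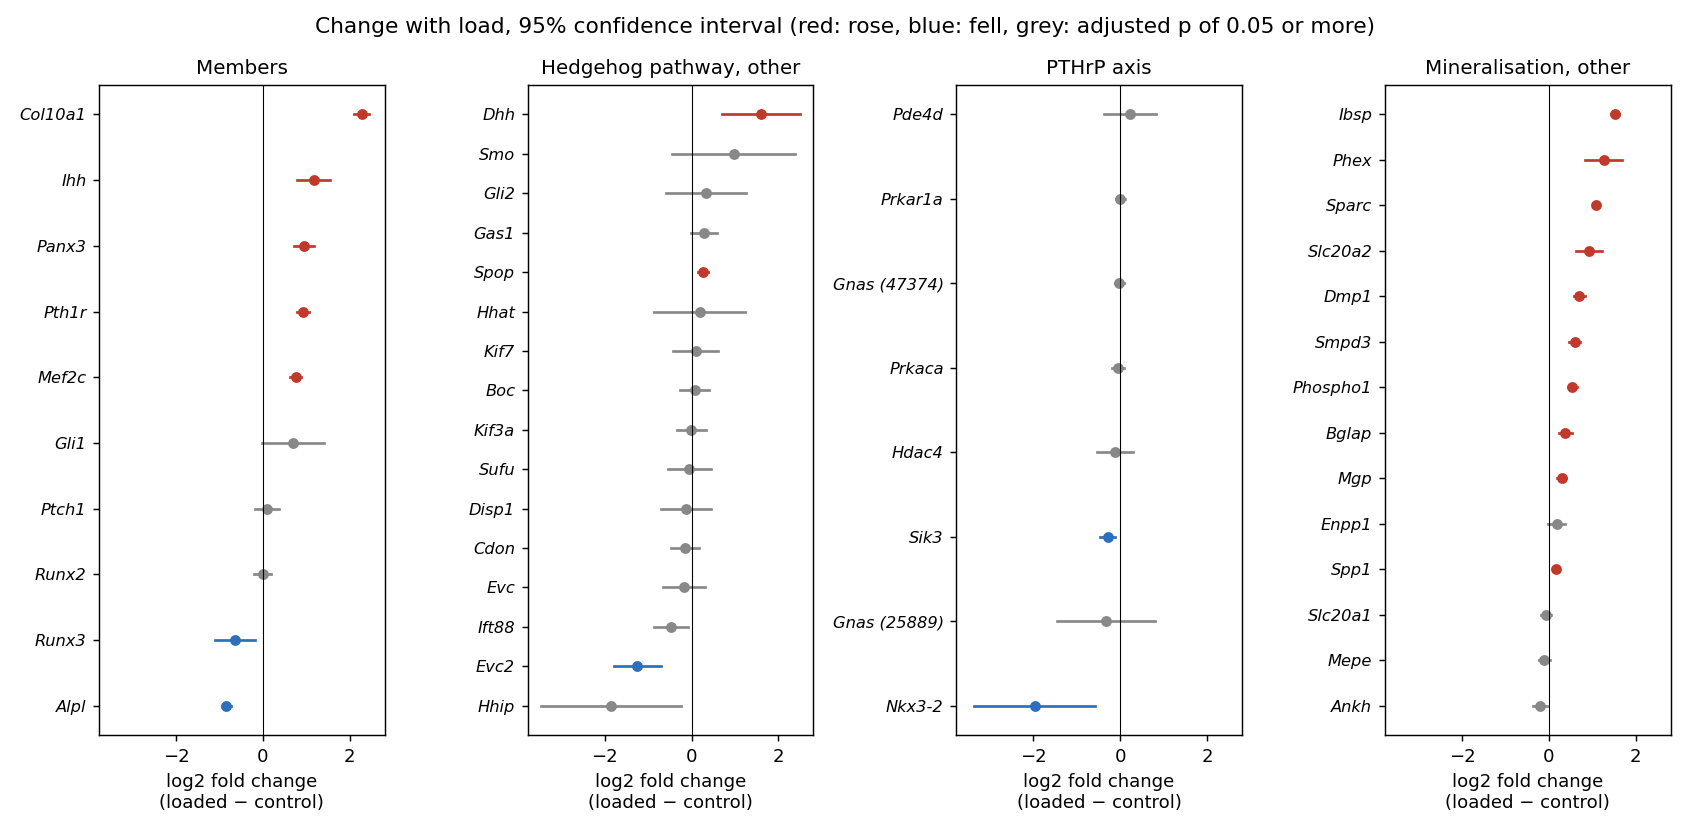
Log2 fold change of loaded against control (x axis) with its 95% confidence interval for the 10 genes and for genes of 3 related lists, each gene on its own line; red rose, blue fell and grey did not pass at an adjusted p under 0.05. Alpl has the lowest value of the 10 genes at -0.84, whereas no tested gene of the mineralisation list fell.

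Runx2 and Runx3, related transcription factors that promote hypertrophy together in the mouse, gave different calls. Runx2 (ENSRNOG00000020193) stood at 19.9, 19.2 and 21.4 CPM in controls and at 18.6, 20.1 and 21.8 CPM in loaded libraries. The groups overlapped throughout, and the log2 fold change was 0.00045 with an interval of -0.20 to 0.20 (adjusted p = 0.998, edgeR). Its sign flipped with DESeq2, limma-voom and RLE size factors, among others.

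Runx3 (ENSRNOG00000054217) was rarer, with 137, 145 and 123 counts in controls and 91, 61 and 75 in loaded libraries, or 3.92, 4.23 and 3.14 CPM against 2.91, 2.14 and 2.18 CPM. Control 3 and loaded 1 lay close together, though the groups did not overlap. It fell by 0.64 on the log2 scale, with an interval of -1.11 to -0.18 (adjusted p = 0.0317, edgeR). The call was lost with library totals as the scaling (adjusted p = 0.0628) and without control 1, control 2, loaded 2 or loaded 3 (adjusted p = 0.0804 to 0.126). Per 100 Runx2 counts there were 14.7 to 22.1 Runx3 counts in controls and 9.97 to 15.6 in loaded libraries, which overlapped, so that unequal change of the pair was not shown by this ratio. Runx3 is also made by T and NK cells. Of their 14 markers 2 fell and 1 rose, against 18.0% and 17.9% of all tested genes. These markers summed to 430 to 447 CPM in controls and 262 to 293 CPM in loaded libraries. Without Nkg7, the most abundant, the sums were 56.6 to 60.4 and 57.3 to 65.0 CPM. The part of T and NK cells in the change was not tested.

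RefSeq gives 2 promoter windows for each of these genes, and part of the upstream one is shown because both hold the same run of 18 bases, given in capitals. The run contains the RUNX core in its reverse form, ACCACA, at 2 places. The stretches lie on build GRCr8 at chr9:23665077-23665106 and chr5:152644127-152644156, both on the plus strand.
Runx2: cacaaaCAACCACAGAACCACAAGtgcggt
Runx3: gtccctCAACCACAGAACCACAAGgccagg
The run begins 25 bases after the annotated start of Runx2 and 137 bases before that of Runx3. Of 33469 windows, 2 held it on either strand, those of Runx2 and Runx3. The downstream window of either gene held no RUNX core.

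Of 10 tested genes of the Runx, Mef2 and pannexin families and their partners, 2 rose and 1 fell, where 17.9% of all tested genes rose and 18.0% fell, so the counts do not set these families apart. Their median log2 fold change was 0.15. Cbfb, the subunit that stabilises Runx proteins on DNA, rose by 0.26 ± 0.0508 (log2 ± SE; adjusted p = 0.000982, edgeR), and the corepressor gene Tle3 fell by 0.37 ± 0.0521 (adjusted p = 4.98e-05). Runx1 stood at 16.5 ± 0.844 and 16.9 ± 1.95 CPM and did not pass (adjusted p = 0.817), and its sign flipped when control 2, loaded 1 or loaded 3 was left out.

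Mef2c, a transcription factor that drives hypertrophy in the mouse growth plate, rose. It (ENSRNOG00000033134) stood at 46.3, 52.0 and 45.2 CPM in controls and at 84.8, 79.8 and 77.5 CPM in loaded libraries, without overlap. The rise was 1.69-fold, a log2 fold change of 0.75 with an interval of 0.62 to 0.89 (adjusted p = 2.29e-07, edgeR). Its relative Mef2a rose by 0.46 ± 0.0922, and Mef2d did not pass (-0.12, adjusted p = 0.421, edgeR). Mef2c is also made by skeletal muscle and B cells. All 9 matched skeletal muscle markers rose, against 17.9% of all tested genes. Their sum went from 7318 to 7450 CPM in controls to 17149 to 17918 CPM under load. Per 100 counts of skeletal actin (Acta1) there were 2.43 to 2.77 Mef2c counts in controls and 1.66 to 1.92 in loaded libraries. B cell markers summed to 275 to 276 CPM and 331 to 343 CPM, and their most abundant gene, Cd79b, had a log2 fold change of 0.02 that did not pass. The parts of muscle and B cells in the rise of Mef2c were not tested.

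Regulators and late markers of hypertrophy outside the 10 genes rose in part. Of 18 tested genes 9 rose and 0 fell, against 17.9% and 18.0% of all tested genes, and the median log2 fold change was 0.47. Ibsp, Phospho1 and Spp1, which rose, are also in the mineralisation list, so the counts of these lists are not separate results. Sp7 (osterix), a transcription factor of osteoblasts and hypertrophic chondrocytes, rose from 2.27 ± 0.116 to 4.57 ± 0.252 CPM, and the vessel growth factor gene Vegfa from 23.1 ± 1.62 to 38.5 ± 1.00 CPM. Cd200, a membrane glycoprotein gene, rose by 0.43 ± 0.0698. Mmp13, the collagenase of terminal hypertrophic cartilage, stood at 838 ± 6.85 and 857 ± 15.1 CPM and passed only with library totals. Sox9, which holds chondrocytes in their earlier state, stood at 1.34 ± 0.0766 and 2.14 ± 0.76 CPM and passed only without loaded 1 (adjusted p = 0.106 in all 6 libraries and 0.0320 without it, edgeR).

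Set against Col2a1, which itself rose by 0.59 ± 0.0367, the 10 genes split as follows. Per 1000 Col2a1 counts, Ihh had 2.96, 2.44 and 2.61 counts in controls and 3.22, 4.54 and 4.19 in loaded libraries. Panx3 went from 8.27 to 9.19 counts in controls to 9.84 to 12.1 counts under load, Pth1r from 30.5 to 34.5 to 37.9 to 41.5, and Mef2c from 45.7 to 49.4 to 51.1 to 54.2. With Col10a1, these 5 genes lay above the controls without overlap, as did 5.53% of tested genes. By contrast, Alpl, Runx3, Ptch1 and Runx2 lay below without overlap, as did 66.5% of tested genes, and Gli1 overlapped. Alpl had 225 to 230 counts per 1000 Col2a1 counts in controls and 83.0 to 86.2 under load.

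**Figure D3:**
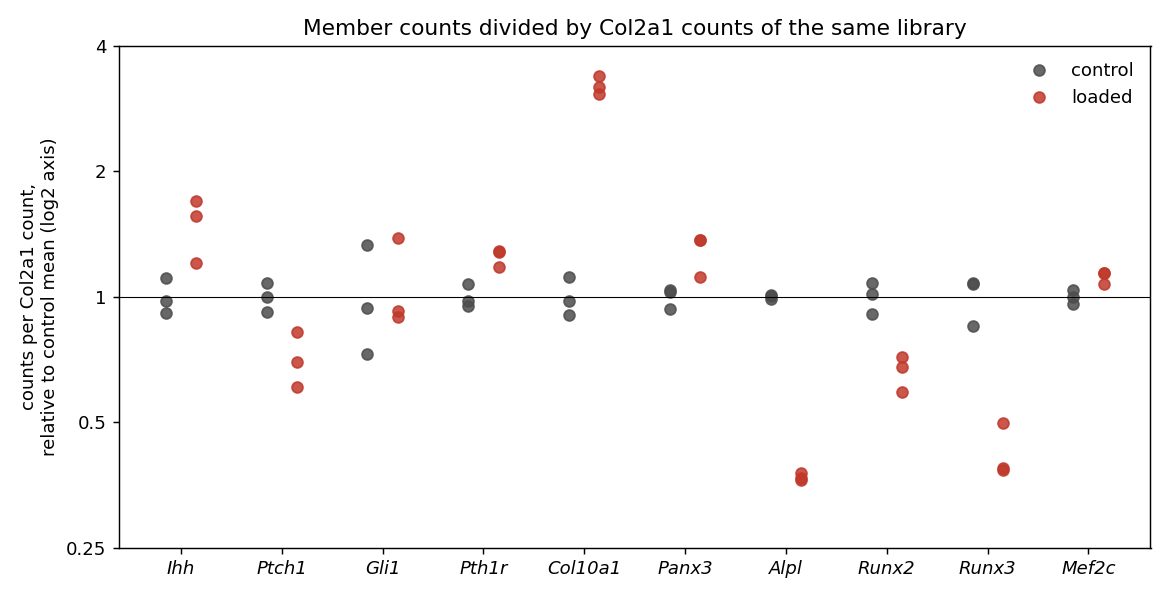
Counts of each of the 10 genes divided by the Col2a1 counts of the same library, relative to the mean of the 3 control libraries (log2 axis), with control in grey and loaded in red. Col10a1 lies 3.21-fold higher on average, Alpl lies 2.71-fold lower, and the points of Gli1 overlap.

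Markers of other cell types are given beside these changes. Of all tested genes 17.9% rose and 18.0% fell. Osteoblast and osteocyte markers rose in 8 of 10 cases and fell in 0 (median log2 fold change 1.05). Their most abundant gene, Col1a1, rose by 1.35 ± 0.0306. The loaded libraries lay entirely above the controls for 8 of the 10 and entirely below for 2, against 23.9% of all tested genes each way. Col10a1 counts per 100 Col1a1 counts were 1.24 to 1.49 in controls and 2.38 to 2.80 under load. Markers of chondrocytes that are not hypertrophic rose in 6 of 12 cases and fell in 0, with a median of 0.19. Endothelial markers split, with 2 rising and 3 falling of 8, and their most abundant gene, Vwf, fell by 0.32 ± 0.057. Monocyte and macrophage markers also split, with 4 rising and 4 falling of 10, and Lyz2 fell by 0.49 ± 0.023. The osteoblast and osteocyte list shares 6 of its 10 genes with the hypertrophy and mineralisation lists. B cell markers rose in 3 and fell in 1 of 11 cases. Counts of so few genes do not set the B cell and endothelial lists apart from all tested genes. No matched marker list had a gene at 0 counts in every library.

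**Figure D4:**
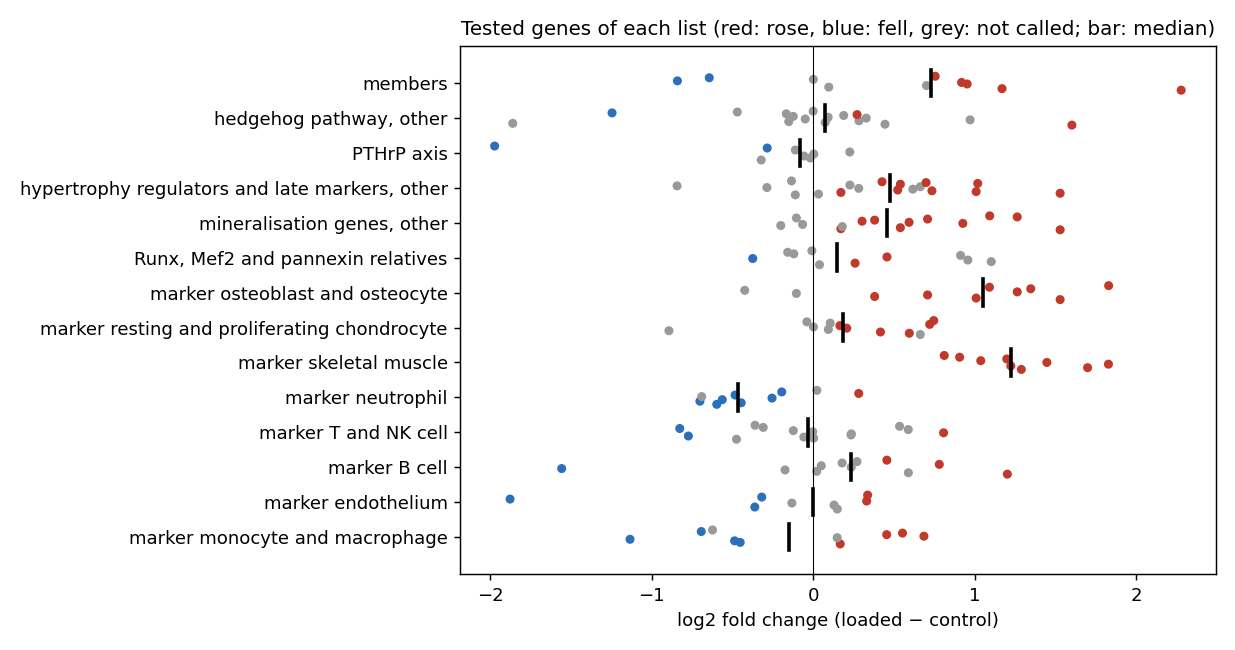
Log2 fold change of loaded against control for every tested gene of each list, with red for genes that rose, blue for genes that fell, grey for genes that did not pass and a black bar at the median. The median is 0.73 for the 10 genes, 0.07 for the other hedgehog genes, -0.08 for the axis of parathyroid hormone related peptide (PTHrP) and -0.47 for neutrophil markers.

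The genes also differed in how closely replicate libraries matched. Within the control group the coefficient of variation of CPM ran from 1.72% for Panx3 to 28.5% for Gli1, and within the loaded group from 4.67% for Mef2c to 25.9% for Gli1. Runx3 followed at 14.9% and 18.0%, and Alpl varied by 4.82% and 4.78%. Gli1 had 30 to 77 counts a library and Alpl 3512 to 8723.

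For Col10a1, the 5 genes of at least 5 CPM with the most similar log2 CPM over the 6 libraries were Cdkn1a, Igfbp4, Siglec5, Ampd1 and Lox, with Pearson r of 0.999 to 1.00. For Ihh they were Paip2, P2ry1, Mettl9, Rbfox1 and Bmp4, and for Alpl they were Lcp1, Ganab, Arhgap1, Cherp and Efcab14, all falling. Such values are a description of 2 groups of libraries: 933 of 9369 genes had an r over 0.95 with Col10a1, 692 with Ihh and 942 with Alpl.

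The authors' deposited table marked Col10a1 and Ihh as up, with log2 fold changes of 2.28 and 1.18. It required 0.01 for the false discovery rate along with 2-fold; of the genes with a value in the authors' deposited table, 4.75% were up and 1.25% down. The authors' deposited table gave Panx3 0.96, Pth1r 0.93, Mef2c 0.76 and Alpl -0.83 on the log2 scale, none of which reached the 2-fold mark.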

How the data were processed

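RNA labelled as knee cartilage, from 3 control and 3 loaded libraries, was measured by RNA sequencing. Per the file headers, the deposited table gives raw counts for each gene and library. Beside them stand FPKM values made by the authors. It also holds false discovery rates and log2 fold changes from a comparison by the authors. Per the submitters' processing notes HISAT2 and DESeq2 were used, with the build named as mm10, although the identifiers are rat Ensembl ones; the build aligned to is therefore uncertain. The sources used here give no counting tool, annotation or strand setting, so overlapping and antisense genes cannot be told apart. Of 26991 lines, 10 were spilled annotation text and were dropped.

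The counts went into edgeR 4.0.16 (R 4.3.3) with filterByExpr (16447 genes kept, 10534 left out), TMM scaling, and the robust quasi-likelihood F test of loaded against control over all genes, with Benjamini-Hochberg adjustment and a threshold of 0.05. Standard errors follow from F and the fold change, and intervals are 95%. CPM uses TMM-scaled totals; Pearson r was taken on log2 CPM, prior count 2. The fit was tested on simulated data. FPKM was used only for levels between genes.

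Earlier results of these data were known when the 10 genes, their lists and the naming rule were chosen. Of 163 listed symbols 156 matched, 1 by an older symbol in the RefSeq table of GRCr8. The result of 1 gene of the hedgehog list is not reported here by name, though the list's counts include it. The rule names all 10 genes, up to 4 called genes of each pathway list by smallest adjusted p, a fixed set of pathway genes whatever their result, the most abundant gene of each marker list, and for Col10a1, Ihh and Alpl the 5 most similar genes of at least 5 CPM. Prtn3, S100a8 and Mmp8 fall outside it and were chosen after their values were seen. Promoter windows come from RefSeq on GRCr8. Alternatives were DESeq2 1.42.0, limma-voom (limma 3.58.1), 3 other scalings, 2 other filters, a replicate block, each library left out, and a threshold of 0.01.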

Additional observations from a re-analysis of the deposited data

How the results depend on the processing

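The count of the 10 genes that changed, 7 in the main analysis, was 6 to 7 when any 1 library was left out, 6 with library totals, 6 at an adjusted p under 0.01 and 7 under every other alternative. The gene lost with library totals was Runx3. The number of all genes that changed, 5895, was 4645 to 5614 with 1 library left out and 5349 with the replicate block. Library totals made 63.3% of 5652 calls rises, against 49.9% with TMM. Col10a1, Ihh, Panx3, Pth1r, Mef2c and Alpl kept their direction and call in all 14 alternatives, with log2 fold changes of 2.19 to 2.35, 1.09 to 1.28, 0.90 to 1.03, 0.87 to 0.99, 0.71 to 0.83 and -0.88 to -0.77. Gli1 missed the threshold in all 14 (0.46 to 0.93). Among genes near 0, Runx2 changed sign with DESeq2 (-0.00072), limma-voom (-0.00082), RLE size factors (-0.00074), no filter (-0.0077) and the replicate block (-0.00095), and ran from -0.0637 to 0.0550 with 1 library left out; Ptch1 ran from -0.0321 to 0.19, Sufu from -0.17 to 0.10, Gli2 from -0.13 to 0.62 and Runx1 from -0.0174 to 0.129. Sufu was 0.0266 with library totals. The causes were not tested.

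Replicate numbers are not said to pair libraries, and the deviations of same-numbered libraries correlated by -0.0139, 0.0462 and 0.0207; not every library correlated best with its own number. With the replicate block 7 of the 10 genes changed, and among the genes named here Nkx3-2 lost its call. Low counts limit the precision for Gli1, Runx3 and Ihh and for rarer genes such as Nkx3-2, Hhip and Sox9.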
